A study of Rattus norvegicus with 12 samples.

Results

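Rapgef4, Arhgap29, Fgf1, Plcb4, Gnai1 and Akap5 are 6 genes of Rap1 and heterotrimeric G protein signalling, and they were described in rat lungs after silica. They were chosen by their own readout. A list of genes called different between silica and saline lungs on the arrays of day 28 holds all of them as lowered, so the values of day 28 are a description and carry no test. The 6 genes have 10 probes in the readable portion of that list, which names 1099 genes in all, and all 10 probes were kept by the filter on dim signals on both days. The Gnai1 probe and an Arhgap29 probe passed that filter through the saline group only. Each of the 1099 named genes had been selected on the same arrays.

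The lungs came from 12 male Wistar rats, and each rat's RNA was read as Cy3 fluorescence on its own single-colour Agilent array. By their labels, 3 saline and 3 silica rats were of day 28, and 3 saline and 3 silica rats were of day 14, which makes 4 groups. In the study's methods, day 28 is the day of sacrifice counted from treatment. Silica rats received an intratracheal instillation of silicon dioxide, given in the labels as 1 mL of 50 mg/mL and also as 50 mg/kg, and saline rats received 1 mL of saline. Per the study's methods, the lungs of the later day were selected on histological changes, and rats of the earlier day are not described. The arrays of day 14 are labelled so in their titles and time points, whereas their protocol text says 28 days. The rat was the unit of replication in the study. No pair of arrays within a group had the same values.

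Rap1 is a small GTPase that switches on when an exchange factor loads it with GTP, and in lung endothelium it is known for holding cell contacts together through integrins, cadherins and the restraint of RhoA. Heterotrimeric G proteins carry signals from receptors at the membrane to adenylyl cyclase, which makes cAMP, and to phospholipase C. The pathways meet at cAMP, which activates both protein kinase A and the Epac exchange factors of Rap1.

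On day 28 between 60.46% and 61.08% of the 51255 probes of a silica array were well above background. In saline arrays of day 28 it was between 63.25% (rat 1) and 69.52%. On day 14 the share was 64.63% to 67.81% in silica arrays and 65.87% to 69.22% in saline arrays. No probe was saturated. The 3 silica arrays of day 28 and saline rat 1 of day 28 shared a slide, and the other 8 arrays shared the second slide, so treatment and slide cannot be fully told apart on day 28. All arrays of day 14 were on the same slide. Levels are log2 signals after quantile normalization within a day (6 arrays), and differences are silica minus saline on that scale.

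All 6 genes were lower in the silica group on both days. On the brightest probe of each gene the median difference was -1.58 at day 28, where the 6 genes ran from -2.15 to -1.15, and -1.12 at day 14, where they ran from -1.45 to -0.86. The median over all probes tested was -0.02 at day 28 and -0.01 at day 14. At day 28 every silica array was below every saline array on 10 of 10 member probes. Over all 32097 probes tested this held for 24.2%, and nothing is read from the day 28 count because those arrays chose the genes. The list of day 28 was made without the arrays of day 14, although the 6 genes were picked from it with results of both days known. At day 14 silica was again below saline on 10 of 10 member probes, beside 18.9% of the 33615 probes tested. The Gnai1 probe and A_44_P1103122 of Arhgap29 entered through the saline group alone, so nothing is read from their places in the count. The 10 probes come from 6 genes and are not independent. In the limma comparison of day 14, Rapgef4 and 1 of the probes of Fgf1 fell, which makes 2 of 10 member probes called lower, beside 2.31% of all probes tested. To be called, a probe had to change by at least 2-fold with a p, adjusted by Benjamini-Hochberg, no higher than 0.05. The other 8 probes did not pass. A rank comparison of 3 rats with 3 rats cannot give an exact permutation p below 0.10, so non-overlap of a single probe is not a test.

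**Figure D1:**
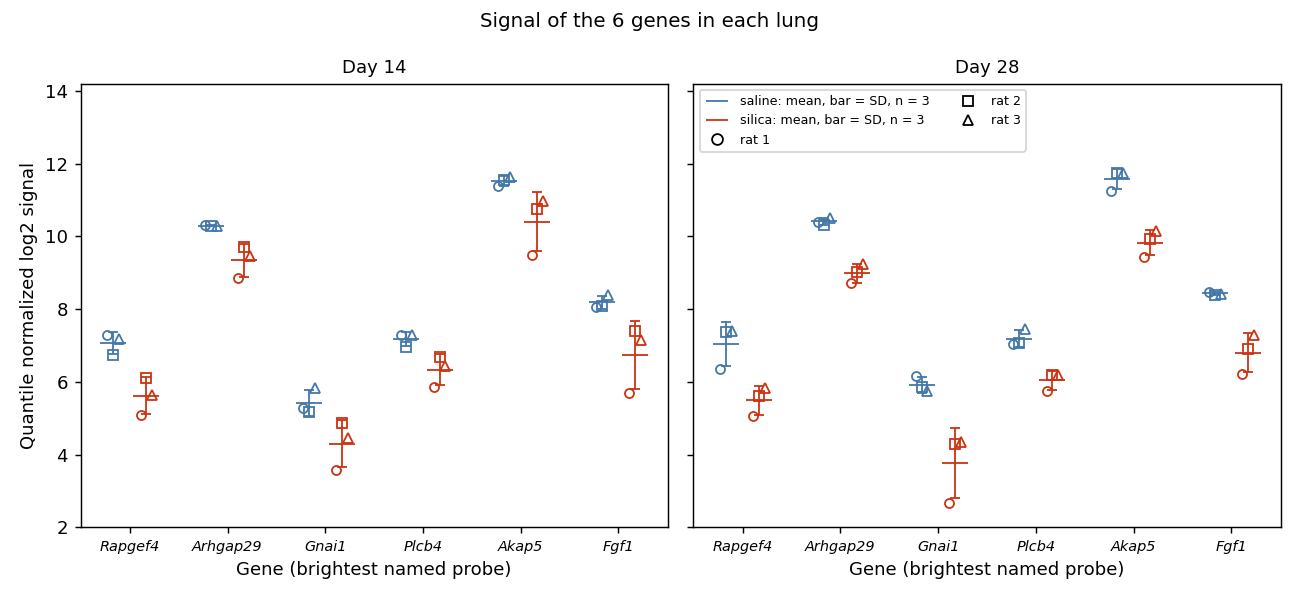
Quantile normalized log2 signal (y axis) of the brightest named probe of each gene (x axis) in each rat, with day 14 on the left and day 28 on the right. Symbols are single rats, and horizontal marks with bars are the group mean and SD of 3 rats. Silica lungs lie below saline lungs for each gene on both days, and silica rat 1 is the lowest silica rat throughout.

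Rapgef4 encodes Epac2, an exchange factor that loads Rap1 with GTP when it binds cAMP. It lies on chromosome 3 of the GRCr8 assembly. The accession of its only probe was not among the RefSeq genes used here, so the name of that probe rests on the study's list alone. Its probe A_42_P824256 read 6.35, 7.39 and 7.39 in the 3 saline lungs of day 28 and 5.05, 5.61 and 5.83 in the 3 silica lungs. Saline rat 1, the saline lung that shared the slide of the silica lungs, was the lowest of its group by about a log2 unit. The group means were 7.04 ± 0.60 (SD, n = 3) and 5.50 ± 0.40, a difference of -1.54. Against the saline rat of the same slide alone, which is what a fit with slide as a block compares, the difference was -0.85.

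At day 14 the Rapgef4 probe read 7.30, 6.74 and 7.18 in saline lungs and 5.10, 6.12 and 5.65 in silica lungs, with a clear gap between the groups. The difference was -1.45 (SE 0.28), or 2.73-fold lower, with a limma adjusted p of 0.026. The call did not hold everywhere. With the replicate number as a block the adjusted p was 0.0504, just above the threshold. It was lost when saline rat 1 (adjusted p = 0.092 in limma), saline rat 2 (0.070), saline rat 3 (0.104) or silica rat 3 (0.062) was left out, and it held without silica rat 1 and without silica rat 2. With normexp the difference was -0.82, short of 2-fold.

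Arhgap29 encodes a GTPase-activating protein that switches RhoA off and acts below Rap1 at endothelial contacts. It lies on chromosome 2 and has 3 probes in the list. The sequence is shown for one that differs from the brightest probe and can be read without a stop codon in 1 of its 3 forward frames.
CUST_R2_11739: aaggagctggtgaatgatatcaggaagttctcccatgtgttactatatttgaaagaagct

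The brightest probe of Arhgap29, A_44_P344730, read 10.40, 10.32 and 10.51 in saline lungs of day 28 and 8.71, 9.01 and 9.24 in silica lungs. Its saline values spanned a narrow band and every silica value lay far below it, with means of 10.41 ± 0.09 and 8.99 ± 0.26. The difference was -1.42. CUST_R2_11739 differed by -1.29 and the dimmest probe, A_44_P1103122, by -1.42, on which silica rat 1 was not well above background. With normexp the 3 differences were smaller and further from each other, at -1.36 for A_44_P344730, -1.15 for CUST_R2_11739 and -0.45 for A_44_P1103122.

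At day 14 A_44_P344730 read 10.32, 10.28 and 10.29 in saline lungs and 8.85, 9.71 and 9.46 in silica lungs. The difference for Arhgap29 was -0.96 (SE 0.22) with a limma adjusted p of 0.041, which passed on p and fell short of 2-fold, so it was not called. CUST_R2_11739 gave -0.87 with an adjusted p of 0.052. A_44_P1103122 gave -1.48 with an adjusted p of 0.087, and was not well above background in silica rat 1 on either day (2 of 3 silica lungs measured it). Without silica rat 2, limma called A_44_P344730 (-1.14, adjusted p = 0.028) and CUST_R2_11739 (-1.03, adjusted p = 0.037).

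Gnai1, on chromosome 4, encodes an alpha subunit of the inhibitory G proteins, which lower the output of adenylyl cyclase. It had the lowest signal of the 6 genes. Its probe A_43_P11734 read 6.16, 5.86 and 5.74 in saline lungs of day 28 and 2.66, 4.29 and 4.35 in silica lungs. Of the silica lungs of day 28 only rat 3 was well above background, so the other silica values are close to the limit of what this probe can measure. The means were 5.92 ± 0.22 and 3.77 ± 0.96, a difference of -2.15, the largest of the 6 genes under this processing. With normexp background correction it was -0.69.

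For Gnai1 at day 14 the saline lungs read 5.28, 5.17 and 5.84 and the silica lungs 3.59, 4.86 and 4.45, with silica rat 1 not well above background. The lowest saline and the highest silica value were 0.30 apart. The difference was -1.13 (SE 0.34) with a limma adjusted p of 0.079. It was called only without silica rat 2 (-1.41, adjusted p = 0.042), among the settings in which 1 rat was left out.

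Plcb4 encodes phospholipase C beta 4, which Gq-type alpha subunits activate to split the membrane lipid PIP2, and lies on chromosome 3. The probe A_44_P340163 read 7.04, 7.06 and 7.46 in saline lungs of day 28 and 5.74, 6.18 and 6.20 in silica lungs. With means of 7.19 ± 0.24 and 6.04 ± 0.26, the difference was -1.15, or 2.21-fold, the nearest of the 6 genes to the 2-fold limit used to choose the listed genes. Probes just short of that limit carry no gene name here. With normexp background correction the difference was -0.72.

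At day 14 Plcb4 read 7.30, 6.97 and 7.29 in saline lungs and 5.86, 6.69 and 6.44 in silica lungs. The groups did not overlap, with the closest pair of rats 0.28 apart. The difference was -0.86 (SE 0.23), below 2-fold, with a limma adjusted p of 0.060. Without silica rat 2 it was called at -1.04 (adjusted p = 0.038).

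Akap5 encodes an A-kinase anchoring protein that ties protein kinase A, protein kinase C and calcineurin to the membrane near receptors and channels. It lies on chromosome 6 and was the brightest of the 6 genes on these arrays, although brightness cannot be compared between probes as a level of mRNA. Its 2 probes have different sequences, shown because both gave the same direction. A_44_P238424 has 1 of 3 forward frames without a stop codon and CUST_R2_16170 has 2 of 3.
A_44_P238424: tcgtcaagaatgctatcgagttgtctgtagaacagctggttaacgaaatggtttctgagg
CUST_R2_16170: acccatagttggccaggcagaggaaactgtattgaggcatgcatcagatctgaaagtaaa

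CUST_R2_16170 of Akap5 read 11.26, 11.73 and 11.73 in saline lungs of day 28 and 9.44, 9.92 and 10.14 in silica lungs. The means were 11.57 ± 0.27 and 9.83 ± 0.36, a difference of -1.74, or 3.34-fold. A_44_P238424 differed by -1.60. All saline values of both probes lay above all silica values, and saline rat 1 was again the lowest saline lung. It was the lowest on 5 of 10 member probes, but the highest for Gnai1 and for A_44_P623578 of Fgf1. With slide as a block the difference was -1.42 on CUST_R2_16170, -2.40 for Gnai1 and -1.67 on A_44_P623578.

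At day 14 CUST_R2_16170 of Akap5 read 11.38, 11.56 and 11.62 in saline lungs and 9.48, 10.76 and 10.97 in silica lungs. Silica rat 1 was lower than the other silica rats by more than a log2 unit, and the silica SD was 0.81, beside 0.13 in saline. The difference was -1.12 (SE 0.37) with a limma adjusted p of 0.100. A_44_P238424 gave -1.24 (SE 0.40) with an adjusted p of 0.095. Without silica rat 1 the difference on CUST_R2_16170 was -0.65, and on A_44_P238424 it was -0.72. Neither probe was called in any of the fits that left out 1 rat. When all 12 arrays were fitted together both were called, with limma adjusted p of 0.048 and 0.0498. That fit also takes its spread from the arrays of day 28, which chose the genes, so nothing is read from these calls.

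Fgf1 encodes acidic fibroblast growth factor, a ligand of FGF receptors that can set Rap1 in motion through receptor tyrosine kinases. It lies on chromosome 18. Probe A_44_P623578 read 8.47, 8.40 and 8.42 in saline lungs of day 28 and 6.23, 6.90 and 7.29 in silica lungs. The saline lungs were nearly equal, with a SD of 0.04, whereas the silica lungs had a SD of 0.54. The difference was -1.62, and -1.34 on the second probe, CUST_R2_10463.

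At day 14 A_44_P623578 of Fgf1 read 8.07, 8.09 and 8.39 in saline lungs and 5.69, 7.40 and 7.15 in silica lungs, and CUST_R2_10463 read 7.82, 7.93 and 8.36 against 6.18, 7.11 and 6.89. Saline values lay above silica values on both probes, and silica rat 1 was again the lowest. CUST_R2_10463 fell by 1.31 (SE 0.27), or 2.48-fold, with a limma adjusted p of 0.030. The brighter probe A_44_P623578 gave a larger difference, -1.44 (SE 0.42), but the spread of its silica lungs was 0.92 and its adjusted p was 0.073. Without silica rat 1 the difference on A_44_P623578 was -0.91. It was called in limma without silica rat 2 (-1.77, adjusted p = 0.044) and with normexp (-1.03, adjusted p = 0.037). It was also called with the 12 arrays fitted together (-1.47, adjusted p = 0.030), a fit whose spread includes the arrays of day 28 that chose the genes. The call on CUST_R2_10463 was lost without saline rat 1 (adjusted p = 0.076), saline rat 2 (0.094), saline rat 3 (0.114) or silica rat 3 (0.060), and with normexp it was short of 2-fold at -0.96.

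**Figure D2:**
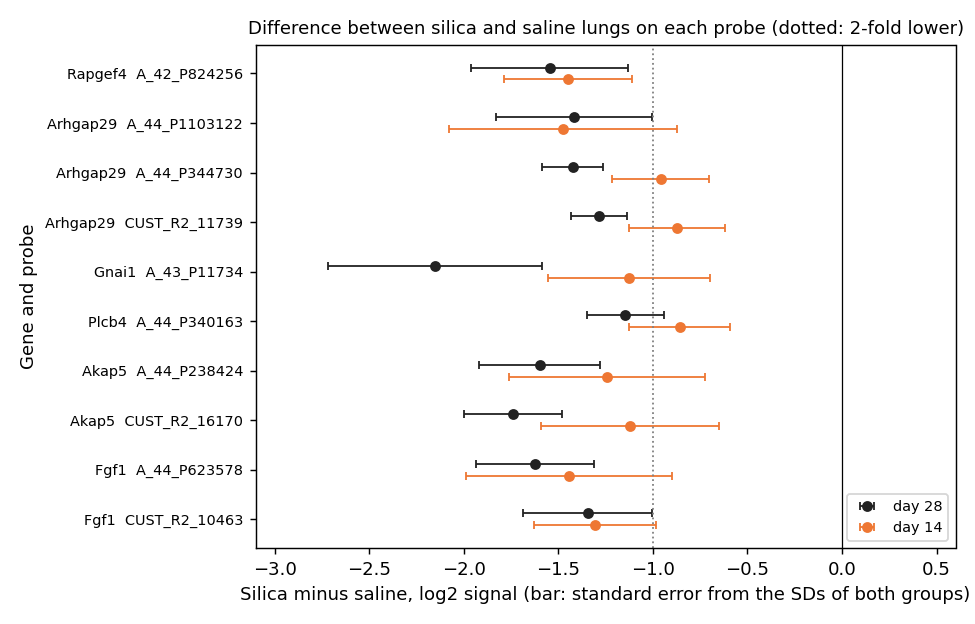
Silica minus saline difference in log2 signal (x axis) for each of the 10 member probes (y axis), with day 28 in black and day 14 in orange. Points are differences of group means of 3 rats each, bars are the standard error from the SDs of both groups without limma's moderation, and the dotted line marks 2-fold lower. Each point lies below 0, from -2.15 to -0.86, and the Gnai1 points rest in part on silica lungs that were not well above background.

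Days were also set side by side on values normalized over all 12 arrays, as a description, since the arrays of day 28 chose the genes. Silica lungs of day 28 and day 14 overlapped on 10 of 10 member probes. Saline lungs of the 2 days overlapped on 7 of 10, with Gnai1, A_44_P623578 of Fgf1 and A_44_P238424 of Akap5 as the exceptions. On these 3 probes all saline lungs of day 28 were above all those of day 14, by 0.60, 0.25 and 0.40 in the mean. No silica group overlapped a saline group of either day. On values normalized within a day, silica lay below saline on 18.9% of all probes tested at day 14 and 24.2% at day 28. Over all probes, overlap between groups of different days was not counted, so nothing is read from these counts. In the group means saline was above silica for each gene, while the ranges of the days within a treatment overlapped at least in part except for those saline pairs. Overlap of 3 rats with 3 rats does not show that the days were equal. The difference of day 28 minus that of day 14 was -1.04 for Gnai1 and -0.63 for CUST_R2_16170 of Akap5. The Gnai1 value rests on silica lungs near background, of which 1 of 3 at day 28 and 2 of 3 at day 14 were well above it. With normexp the Gnai1 differences were -0.69 at day 28 and -0.40 at day 14, closer together than those of CUST_R2_16170 of Akap5 (-1.68 and -1.07). It lay between -0.47 and -0.03 on 6 of the other probes, and was 0.06 on A_44_P1103122 of Arhgap29 and 0.02 on CUST_R2_10463 of Fgf1.

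**Figure D3:**
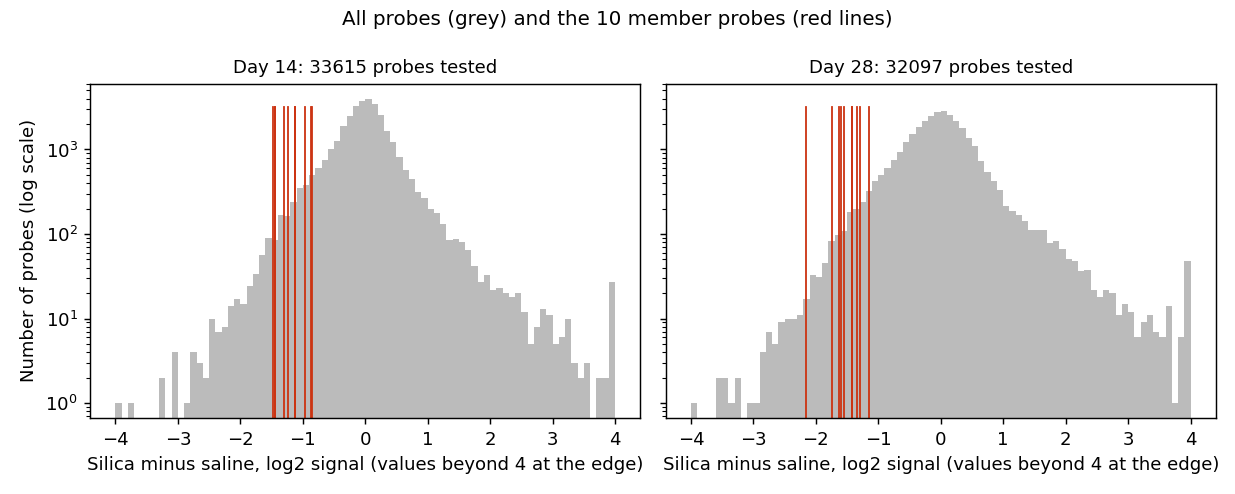
Number of probes (y axis, log scale) by silica minus saline difference in log2 signal (x axis), with day 14 on the left (33615 probes) and day 28 on the right (32097 probes). Grey bars are all probes tested and red lines the 10 member probes, which lie between -1.48 and -0.86 at day 14 and between -2.15 and -1.15 at day 28 in the lower flank of the distribution.

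The 6 genes also moved together from rat to rat. For the 15 pairs of genes, Pearson's r over the 12 arrays ran from 0.86 to 0.98 with a median of 0.93, which contains the difference between the groups. With the group means removed it ran from 0.55 to 0.96 with a median of 0.79. The 12 points share groups and slides, so these values are descriptions. No such values are given for pairs of other genes, so they are not shown to be particular to these 6. Silica rat 1 was the lowest silica rat on 10 of 10 member probes on each day. Over all probes tested it was the lowest silica rat on 36.2% at day 28 and 34.1% at day 14. Among the other 518 named genes that were lower at day 28 it was the lowest for 80.5% and 84.4%, so the member genes shared this with most of the named genes that were lower. The 2 silica rats numbered 1 are different animals. Without silica rat 1 the day 14 median of the 6 genes was -0.75.

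Other genes around the 6 members were read from lists of pathway genes, of which only those that the list of day 28 holds have a name here. Of 33 Rap genes (GTPases, exchange factors, GAPs and effectors) other than the members, 7 were named. Plce1, a phospholipase C that Rap and Ras activate, fell by 1.29 at day 14 (limma adjusted p = 0.013). Heg1, a transmembrane receptor of endothelial contacts, fell by 1.20 (adjusted p = 0.042). Rapgef3, which encodes Epac1, was at -0.93 (adjusted p = 0.021) and Rasgrp3, a Ras and Rap exchange factor, at -0.90 (adjusted p = 0.036), both short of 2-fold. Rapgef5, another exchange factor, was at -0.62 and Magi1 at -0.78. The GTPase Rap2b went the other way at 0.98 (adjusted p = 0.028), also short of 2-fold, so 2 of 7 were called lower and none higher, with a median of -0.90.

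Of 22 heterotrimeric G protein subunit genes 2 were named, Gnao1 at -1.24 and Gngt2 at 0.92 at day 14, and neither passed the test in limma (adjusted p = 0.150 and 0.082). Gnat2, a further alpha subunit that the list left out, was at -2.19 (adjusted p = 0.057) on a probe that was not well above background on all arrays. Of 35 genes of cAMP and protein kinase A 2 were named, the adenylyl cyclase Adcy1 at -1.37 and the anchoring gene Akap2 at -0.83, and neither passed (adjusted p = 0.120 and 0.101). Of 15 genes of FGF ligands, receptors and their regulators 2 were named, and Spry1, a feedback inhibitor, fell by 1.02 (adjusted p = 0.039) and Fgf18 was at -0.96 (adjusted p = 0.088). None of the 22 genes in the list of RhoA and its regulators and none of the 12 in that of phospholipase C and IP3 receptor genes had a named probe. The lists do not hold every gene of a family, and genes left out went both ways at day 14. Fgf23 was at 0.88 (limma adjusted p = 0.125). Arhgap11a at 1.06 (adjusted p = 0.029) and Arhgap22 at 1.19 (adjusted p = 0.022) were called higher. Arhgef15 at -1.08 (adjusted p = 0.031) and Arhgef18 at -1.05 (adjusted p = 0.044) were called lower. Plce1, given above, was placed among the Rap effectors. For comparison, of the 506 other named genes lower at day 28 that were tested at day 14, 169 were called lower at day 14 (33.4%) and 1 higher, with a median of -1.01. These are counts of genes on their brightest probe, and on that count 1 of the 6 member genes, Rapgef4, was called lower.

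Markers of the cell types of a lung moved beside the member genes. A marker too has a name here only if the list of day 28 holds it, so the named markers are not a full panel. Of 15 endothelial markers 7 were named, and 4 of these were called lower at day 14. Plvap was at -2.07, Ramp2 at -1.57, Tek at -1.45 and Cdh5 at -1.14, and Egfl7 had the smallest difference of the 7 at -0.87. The log2 of their summed signals, to which Cdh5 as the brightest adds most, lay between 14.55 and 14.91 in saline lungs of day 14. In silica lungs of day 14 it lay between 13.05 and 13.94. At day 28 it was 15.05 to 15.16 in saline lungs against 13.16 to 14.00 in silica lungs. Of 9 markers of alveolar type 1 cells 4 were named. These had a median of -1.32 at day 14 and none was called, with the smallest difference on Aqp5 (-0.96). The log2 of their summed signals was 13.92 to 14.14 in saline lungs against 11.72 to 13.20 in silica lungs at day 14.

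Macrophage markers with a name went the other way. Of 9 listed, 5 were named and all 5 were called higher at day 14. Trem2 was at 4.20, Gpnmb at 4.03, Msr1 at 3.12, Cd68 at 2.85 and Cd14 at 1.87. The log2 of their summed signals was 10.73 to 11.54 in saline lungs of day 14 against 14.06 to 14.66 in silica lungs. The airway gene Bpifb1, 1 named of 6, also rose, by 3.83. Fibroblast markers Col1a1 and Lum (2 named of 7), the smooth muscle marker Tagln (1 of 6) and the lymphocyte marker Cd8a (1 of 8) were not called at day 14. No marker of alveolar type 2 cells or neutrophils had a named probe. In such bulk RNA, fewer cells of a type and less mRNA per cell cannot be told apart, and the part of these cell types in the values of the 6 genes was not tested.

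**Figure D4:**
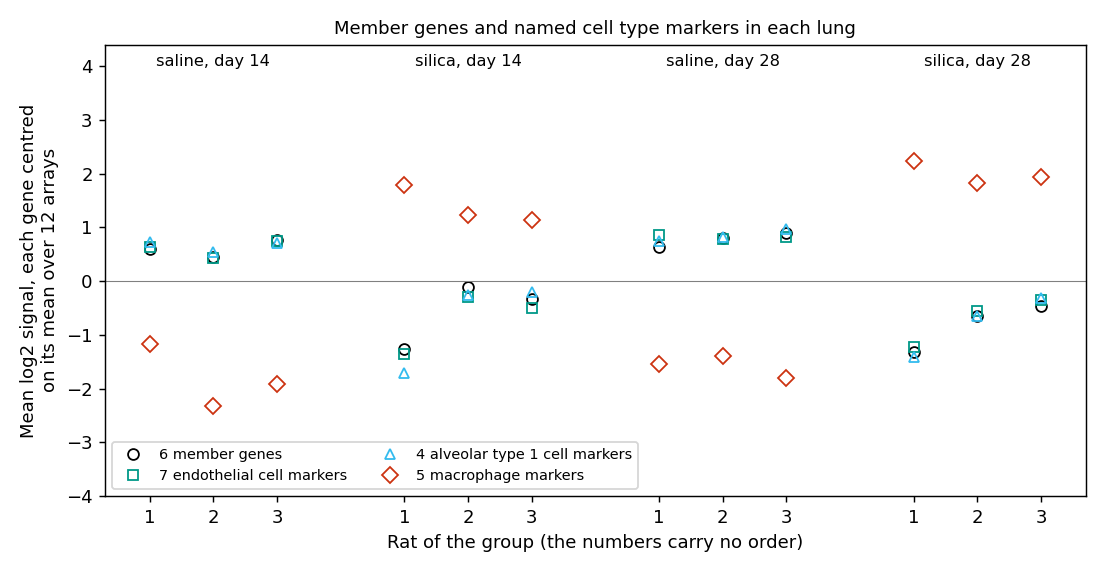
Mean log2 signal (y axis) in each rat (x axis, rats 1 to 3 of the 4 groups), each gene first centred on its mean over the 12 arrays. Black circles are the 6 member genes, green squares 7 endothelial markers, blue triangles 4 alveolar type 1 markers and red diamonds 5 macrophage markers. The member genes run from -1.33 in silica rat 1 of day 28 to 0.89 in saline rat 3 of day 28, next to the endothelial and alveolar type 1 markers.

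The named genes most like the mean of the 6 centred profiles over the 12 arrays were Cyyr1 (Pearson's r = 0.996), Erg (0.994), Heg1 (0.994), Schip1 (0.992) and Notch3 (0.992). Erg encodes a transcription factor of endothelial cells and Notch3 a receptor of mural cells. An r above 0.9 was common here, found for 304 of the 829 named genes compared.

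The start regions of the genes were read from RefSeq on GRCr8, as the 250 bases before the annotated start on the strand of the gene. All 6 genes matched by symbol. Akap5 and Arhgap29 are shown because each had several probes that were lower on both days, at chr6:100786919-100787168 and chr2:212755635-212755884, both on the plus strand. Capitals mark the GC box, searched as GGGCGG and its reverse complement CCGCCC.
Akap5: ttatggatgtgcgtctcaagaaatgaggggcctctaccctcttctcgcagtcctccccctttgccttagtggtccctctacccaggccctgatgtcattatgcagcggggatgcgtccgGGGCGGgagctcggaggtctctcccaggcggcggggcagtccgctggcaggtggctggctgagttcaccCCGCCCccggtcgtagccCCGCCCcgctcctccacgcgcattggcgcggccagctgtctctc
Arhgap29: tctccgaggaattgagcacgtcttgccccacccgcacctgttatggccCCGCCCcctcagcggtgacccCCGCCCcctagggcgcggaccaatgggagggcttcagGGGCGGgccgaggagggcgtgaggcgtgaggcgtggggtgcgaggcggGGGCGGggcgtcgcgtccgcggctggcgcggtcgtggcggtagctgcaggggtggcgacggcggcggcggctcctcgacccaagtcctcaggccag

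The GC box was present before 5 of the 6 genes, with 7 matches for Plcb4, 5 for Rapgef4, 4 for Arhgap29, 3 for Akap5, 3 for Gnai1 and none for Fgf1. It occurs in 32.4% of the 27457 rat windows of this length. The windows of the 5 genes that hold it are rich in G and C, from 66.8% to 86.4%, beside a median of 52.0% over all windows and 46.0% for Fgf1. The CCAAT box (CCAAT) was found before 2 genes (34.3% of all windows), the TATA box (TATAAA) before 1 (13.1%) and the E-box (CACGTG) before 1 (5.79%). The ETS core (CCGGAA, 13.4% of all windows) and the cAMP response element (TGACGTCA, 1.7%) were in none of the 6 windows, with both strands searched for each. These matches describe letters in a window and say nothing about binding.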

How the data were processed

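Per the submitters' processing notes, the authors read each array with Agilent Feature Extraction 10.7.1.1 and deposited a background-corrected spot intensity and flags for 62972 spots, 1439 of them controls. A deposited table of log2 values, normalized by the authors with the quantile method in GeneSpring, served as an alternative. A spot's flag for being well above background, coded as another kind of value in the deposited scanner files, was used to filter probes.

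Intensities of non-control spots without an outlier flag (unless all spots of a probe had one) were averaged by probe (51255), turned into log2 values and quantile normalized within each day's 6 arrays. A probe had to be well above background, by most of its spots, in all 3 rats of some group. This left 33615 probes at day 14 and 32097 at day 28. Groups at day 14 were compared with limma 3.58.1 (lmFit, eBayes) in R 4.3.3, with Benjamini-Hochberg adjustment over all probes kept, and calls needed 2-fold and an adjusted p no higher than 0.05. The fit was tested on simulated data. Precision is limited by 3 arrays per group.

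Gene names come from the first 1279 probes of the study's list of day 28, all of which had the arrays' sequences. Of the 10 member probes, 9 had an accession in RefSeq, all but that of Rapgef4. The brightest probe stood for a gene with several. Named genes were the 6 members, list genes called at day 14 (at most 4 a list) with the smallest of each list and the 5 most alike. Other list genes without a call (Rapgef3, Rasgrp3, Magi1, Rap2b, Gnao1 and Adcy1) were named after their values were seen. So were Gnat2, Fgf23, Arhgap11a, Arhgap22, Arhgef15 and Arhgef18 from outside the lists. Members, gene lists and tests were chosen with earlier results of these data known. The proteins of these genes and further probes of the members were not analysed here. The authors' own fold changes and p-values were not used. Plots used matplotlib 3.10.9, and tables pandas 2.3.3 and numpy 2.4.6 in Python 3.11.15. Alternatives were the scaling to the 75th percentile, normexp (offset 50), the authors' table, other filters, 12 arrays together, slide or replicate number as a block, and each rat left out.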

Additional observations from a re-analysis of the deposited data

How the results depend on the processing

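Over all alternatives no difference of the 6 genes turned its direction. At day 14, 2 member probes were called lower beside 778 of all probes tested. With the 12 arrays fitted together these counts became 6 and 946. That fit takes its spread also from the arrays of day 28, which chose the genes, so nothing is read from its member count. With normexp background correction 1 member probe was called (A_44_P623578 of Fgf1, which was not among the 2), beside 278 of all probes. Without the filter on dim probes, where more probes enter the adjustment, the member count was 0 beside 98. Leaving out 1 rat gave 0 to 7 member probes, in fits with fewer rats. The member count was 0 without saline rat 1, 2 or 3, where 124, 70 and 45 of all probes were called lower. It was 0 beside 411 without silica rat 3, 2 beside 411 without silica rat 1, and 7 beside 1375 without silica rat 2. The 869 probes called higher and 778 called lower at day 14 became 298 and 98 without the filter and 430 and 278 with normexp, and ranged from 211 to 963 and from 45 to 1375 with 1 rat left out. At day 28 the median of -1.58 was -1.07 with normexp and -1.42 with slide as a block, and ranged from -1.79 to -1.32 with 1 rat left out. The day 14 median of -1.12 ranged from -0.75 to -1.35. With normexp, day 28 differences were -0.45 for A_44_P1103122 of Arhgap29, -0.69 for Gnai1, -0.90 for Rapgef4 and -0.72 for Plcb4. At day 14 the Rapgef4 and Fgf1 (CUST_R2_10463) differences were -0.82 and -0.96 with normexp, short of 2-fold, and their limma adjusted p without the filter was 0.085 and 0.092. With a filter that asks for signal on every array, 8 of the 10 member probes entered at day 28, and silica was below saline on all 8. Nothing is read from that count, since those arrays chose the genes and the share over all probes under this filter is not given. The cause of these shifts was not tested.

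The replicate numbers do not pair the rats, since deviations of same-numbered rats correlated between -0.17 and 0.06. With the replicate block, 1 member probe was called lower in place of 2 (Rapgef4 was lost, adjusted p = 0.0504 in limma), beside 859 probes called higher and 675 lower. The search for further probes of the members by their proteins was not run, because the protein sequences it needs were not used here.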
